A study of Mus musculus with 4 samples.

Results

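The 5 genes described here are the metallothioneins Mt1 and Mt2 and the zinc transporters Slc30a1, Slc39a1 and Slc39a14, followed in the immune cells of mouse skin wounds. They were found by symbol among the 31053 genes of the deposited tables, and each of the 5 was present once. The set was chosen by measured values, since Mt2 was among the genes that differed between the genotypes at both times in an earlier reading of the same data. The differences between genotypes are therefore given as a description.

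Live CD45+ cells, the cells that carry the pan-leukocyte marker, were sorted from excisional wounds of the back skin of young adult male mice. The wounds came from wild-type C57BL6/J mice (Angptl4+/+) or from mice lacking Angptl4, a secreted matricellular protein, in every tissue (Angptl4-/-), and were collected at 1 or 5 days post wounding (dpw). Each of the 4 combinations of genotype and time was 1 droplet library, so there was 1 library per condition, no replicate and no test, and the labels do not give how many mice each library held. The labels give the strain C57BL6/J for all 4 libraries, while the paper names different sources for the wild-type and the Angptl4-/- mice. A difference between 2 libraries is a difference between those libraries. Genotype, source of the mice, animal and sorting day cannot be told apart.

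Metallothioneins are small cysteine-rich proteins that bind zinc and copper in the cytosol, buffer free zinc and take up reactive oxygen species. Zinc enters the cytosol through transporters of the Slc39 (ZIP) family and leaves it, for the outside or for organelles, through those of the Slc30 (ZnT) family. When cytosolic zinc is high, the zinc-sensing factor Mtf1 binds short metal response elements in the promoters of Mt1, Mt2 and Slc30a1, so transcripts of these 3 genes are widely used as a readout of zinc. Metallothionein transcription also responds to glucocorticoids, oxidative stress, low oxygen and interleukin-6, and macrophages change their handling of zinc when they are activated.

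Mt1 and Mt2 lie side by side on the plus strand, with 5513 bases between them. Mt1 is at chr8:94179082-94180327 and Mt2 at chr8:94172664-94173568 in GRCm38. Slc30a1, the exporter of the plasma membrane, is at chr1:191906767-191913247 on the plus strand. Slc39a1, an importer present in most cell types, is at chr3:90248172-90253612 on the plus strand. Slc39a14, an importer of zinc that also carries iron and manganese, is at chr14:70303469-70351425 on the minus strand. All 5 are annotated as protein-coding genes. A processed copy, Slc39a1-ps, holds 26.4% of the 31-base words of the Slc39a1 transcripts, so reads of Slc39a1 could be split or dropped by the authors' counting, whereas no more than 0.622% of the words of any other member were found in another gene.

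The promoters of the 3 genes that Mtf1 is known to act on are shown because they carry the letters by which zinc is read. Each runs from 250 bases before to 50 bases after the start that RefSeq gives on GRCm38.p6, which is not always the GENCODE start used for the positions above, and capitals mark the metal response core, TGCACNC or TGCGCNC on either strand. The windows are chr8:94178839-94179138 for Mt1, chr8:94172368-94172667 for Mt2 and chr1:191906531-191906830 for Slc30a1, all on the plus strand.
Mt1: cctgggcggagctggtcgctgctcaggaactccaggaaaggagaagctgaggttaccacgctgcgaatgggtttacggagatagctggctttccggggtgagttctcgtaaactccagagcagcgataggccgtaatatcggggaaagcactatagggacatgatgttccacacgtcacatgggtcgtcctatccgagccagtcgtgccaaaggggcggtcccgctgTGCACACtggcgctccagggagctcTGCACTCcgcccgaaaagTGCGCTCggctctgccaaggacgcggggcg
Mt2: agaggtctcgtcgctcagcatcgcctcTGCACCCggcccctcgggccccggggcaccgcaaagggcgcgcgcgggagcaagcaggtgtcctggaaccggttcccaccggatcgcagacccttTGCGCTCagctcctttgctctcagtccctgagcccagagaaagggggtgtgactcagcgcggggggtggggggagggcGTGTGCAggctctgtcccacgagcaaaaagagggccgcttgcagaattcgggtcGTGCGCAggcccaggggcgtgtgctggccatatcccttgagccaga
Slc30a1: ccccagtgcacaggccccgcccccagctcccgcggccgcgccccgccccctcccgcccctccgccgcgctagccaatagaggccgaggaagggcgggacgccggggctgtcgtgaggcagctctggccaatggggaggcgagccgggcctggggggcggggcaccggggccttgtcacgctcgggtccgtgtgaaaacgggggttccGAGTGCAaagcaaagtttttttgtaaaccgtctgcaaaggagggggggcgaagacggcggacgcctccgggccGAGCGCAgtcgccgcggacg
Mt1 held 3 matches to the metal response core, Mt2 held 4 and Slc30a1 held 2. The promoter of Slc39a1, at chr3:90247942-90248241, held 0. Among 32851 promoters of the same length, 25.7% held at least 1 match, 7.11% at least 2, 1.97% at least 3 and 0.518% at least 4. The Mt1 matches began at -23, 3 and 21 from its RefSeq start, so they reached past the start to near the end of the window. The core of the antioxidant response element is TGACNNNGC on either strand. It was found 1 time each in the windows of Mt2, Slc30a1 and Slc39a1 and not in that of Mt1, against 12.4% of all promoters. It overlapped no metal response core. Letters outside the windows were not searched, so a count of 0 holds for the window and not for the gene. A match is a run of letters in these windows and not a site where binding was measured. Promoters of 4 of the 5 members were matched, and Slc39a14 was not.

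The 4 libraries held 4772 to 5419 barcodes and 26981596 to 32962595 deposited unique molecular identifiers (UMIs, 1 per captured transcript), and 19827 of 20069 cells passed filtering, with medians of 3735.5 to 4975.5 UMIs per cell. Any 2 libraries shared 5 to 15 barcodes. Angptl4 had 47 and 78 UMIs in the Angptl4+/+ libraries at 1 and 5 dpw and 0 in both Angptl4-/- libraries. A count of 0 was set beside a fixed floor of 3 UMIs, here 0.109 and 0.112 UMIs for every 1000000 of the library. Clustering gave 13 clusters. By marker genes 7 were neutrophil-like and 2 macrophage-like, and there was 1 cluster of each other class, namely B cell-like, NK cell/T cell-like, monocyte-like and dendritic cell-like cells. Macrophage-like cells came from cluster 3, led by Arg1 and Fn1, and cluster 5, led by Apoe and Ms4a6c. Cluster 3 gave most of them in 3 libraries (810, 926 and 547 cells against 340, 612 and 296), while in Angptl4-/- wounds at 5 dpw cluster 5 did, with 342 cells against 303. The B cell-like cluster, with 55 cells, was too small for the comparisons that follow.

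Transcripts of the 5 genes were concentrated in macrophage-like cells. Levels are given as counts per 1000000 (CPM), the UMIs of the gene for every 1000000 UMIs of the class in a library. Macrophage-like cells made up 21.1% of all cells and 30.4% of all UMIs, yet held 82.5% of the Mt1 UMIs, 88.5% of those of Mt2, 80.8% of those of Slc39a14, 74.4% of those of Slc30a1 and 66.7% of those of Slc39a1. Slc39a1 was the most widely spread, with 18.6% of its UMIs in neutrophil-like cells.

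In macrophage-like cells Mt1 stood at 541.7 CPM in Angptl4+/+ and 339.3 CPM in Angptl4-/- wounds at 1 dpw, and at 670.3 and 280.4 CPM at 5 dpw. In the same order Mt2 stood at 90.6, 46.4, 176.3 and 37.9 CPM. Both metallothioneins were thus higher in the Angptl4+/+ library of each time point. The transporters varied less over the libraries, between 16.7 and 28.0 CPM for Slc30a1, 85.2 and 106.9 CPM for Slc39a1 and 57.3 and 94.5 CPM for Slc39a14. A tag from the 3′ end gives 1 UMI per transcript whatever its length, so levels of different genes were not divided by length.

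The monocyte-like cells of cluster 9 carried less of all 5 genes than the macrophage-like cells of the same library. For Slc30a1 the gap was small, with monocyte-like cells at 60.9% to 83.5% of the macrophage-like level on 20 to 31 UMIs per library. At 1 dpw these counts were too few to put both classes in order for Slc30a1. Mt1 was at 128.4 and 97.7 CPM in the Angptl4+/+ and Angptl4-/- libraries at 1 dpw and at 29.0 and 36.1 CPM at 5 dpw. Mt2 had 18 UMIs in Angptl4+/+ and 1 UMI in Angptl4-/- monocyte-like cells at 1 dpw. It had 0 in both libraries at 5 dpw, where the floor of 3 UMIs was 2.56 CPM in Angptl4+/+ and 2.26 CPM in Angptl4-/- cells. Neutrophil-like cells had the lowest Mt1 of these classes in each library, at 5.07 to 17.5 CPM. Slc30a1 was lowest there too, at 1.06 to 1.27 CPM against 14.0 to 17.1 CPM in monocyte-like cells, a gap larger than the counting error in every library. Dendritic cell-like cells came next to macrophage-like cells for Mt1, at 137.4 to 238.5 CPM, and NK cell/T cell-like cells were at 86.3 to 118.7 CPM. The NK cell/T cell-like values at 1 dpw rest on 4 of 36 cells in each library, with 51.5% and 67.7% of the UMIs in 1 cell, and at 5 dpw 10 cells held 90.4% and 86.8%. As a percentage of the macrophage-like level Mt1 stood there at 13.9% to 31.6%. At 1 dpw the macrophage gene Fn1 stood about as high as Mt1 in both genotypes. Fn1 was at 21.6% against 21.9% for Mt1 in Angptl4+/+ wounds, and at 31.8% against 31.6% in Angptl4-/- wounds. At 1 dpw the monocyte-like and NK cell/T cell-like cells could not be put in order for Mt1 because their intervals overlapped, and neither could the dendritic cell-like and NK cell/T cell-like cells of the Angptl4-/- library.

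**Figure D1:**
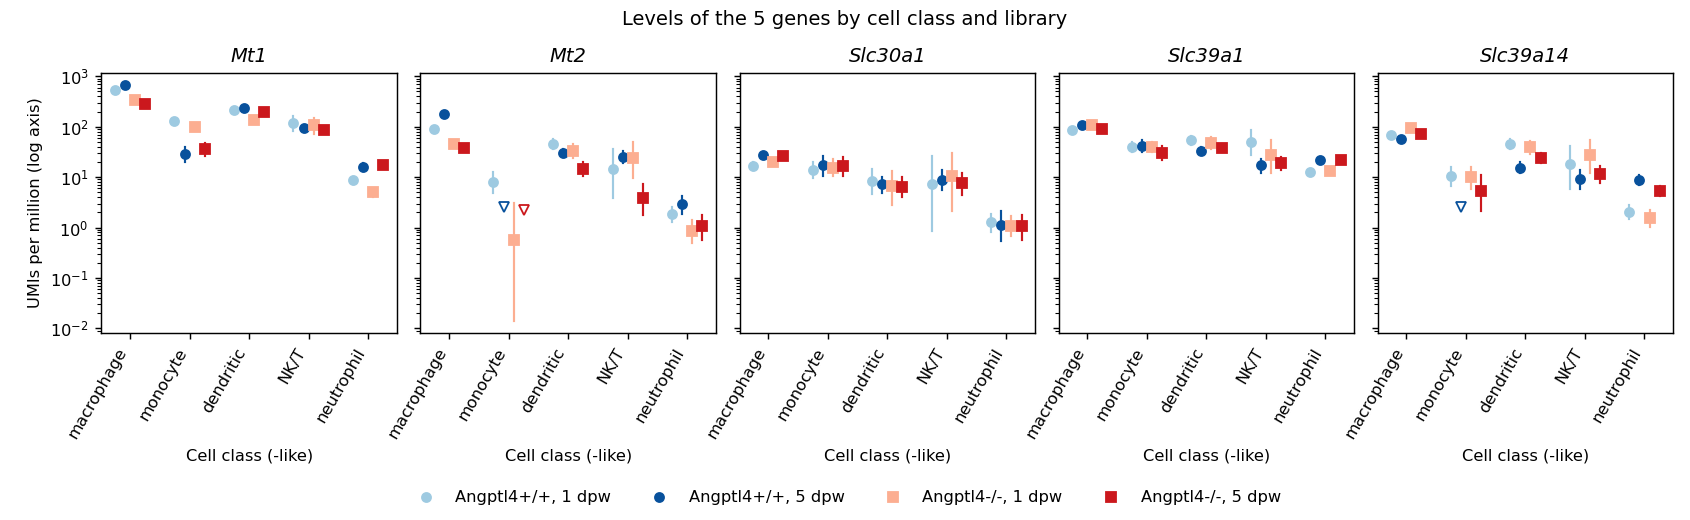
Level of each of the 5 genes (CPM, log axis) by cell class in the 4 libraries, with 95% counting intervals as bars. Macrophage-like cells are at the top for Mt1 in every library, at 280.4 to 670.3 CPM, and neutrophil-like cells at the bottom, at 5.07 to 17.5 CPM.

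Whether loss of Angptl4 went with other levels of these genes was asked in monocyte-like and macrophage-like cells together, the lineage the study is about. At 1 dpw there were 1303 such cells from Angptl4+/+ and 970 from Angptl4-/- wounds, and at 5 dpw 1668 and 772. Their median depths were 7946, 6714, 8467.5 and 11334 UMIs in that order, so the Angptl4-/- cells at 5 dpw were the most deeply read. At 1 dpw Mt2 stood at 74.3 CPM in Angptl4+/+ wounds, with a 95% Poisson interval of 69.3 to 79.5, and at 35.6 CPM (31.4 to 40.1) in Angptl4-/- wounds. At 5 dpw the levels were 161.7 CPM (155.2 to 168.5) and 32.3 CPM (28.7 to 36.3). The Angptl4-/- library was the lower one at both times, and the level at 5 dpw in Angptl4+/+ cells was the highest of the 4. All such intervals cover counting error only, not the difference between mice, and metallothionein UMIs were bunched in few cells, so the true spread is wider.

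Mt2 was 2.09-fold lower in Angptl4-/- cells at 1 dpw, a log2 ratio of -1.06 (95% interval -1.27 to -0.86). At 5 dpw it was 5.00-fold lower, a log2 ratio of -2.32 (-2.50 to -2.15). Ordered from the most reduced, Mt2 was number 28 of 8442 genes at 1 dpw and number 7 of 9038 at 5 dpw, among genes with at least 100 UMIs over both libraries. Mt2 was the gene whose ratios selected the set, so these ranks describe the choice. At 1 dpw its ratio fell short of 2-fold when every cell was thinned to 1000 UMIs (-0.61) or given the same weight (-0.72), and reached -0.98 with the cell states described below held at the same shares. In macrophage-like cells alone it was -0.96 (-1.17 to -0.76) at 1 dpw, also short of 2-fold.

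Mt1, the neighbouring metallothionein, had 459.7 CPM at 1 dpw in Angptl4+/+ wounds (447.2 to 472.5), against 282.0 CPM (270.2 to 294.2) without Angptl4. At 5 dpw it was at 617.3 CPM in Angptl4+/+ and 244.5 CPM (234.4 to 254.9) in Angptl4-/- cells. Its log2 ratio was -0.71 (-0.78 to -0.63) at 1 dpw and -1.34 (-1.40 to -1.27) at 5 dpw, that is 1.63-fold and 2.52-fold lower, numbers 97 and 24 in the same order of genes. Mt1 and Mt2 are transcribed from the same short stretch of chromosome 8 and are known to respond to the same inducers, so they are not independent of each other.

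The transporters differed less between the genotypes, and by less than 2-fold at both times. Slc30a1, the exporter that shares the metal response element, had 16.2 and 18.8 CPM in Angptl4+/+ and Angptl4-/- cells at 1 dpw and 27.1 and 24.7 CPM at 5 dpw. Its log2 ratios were 0.22 (-0.11 to 0.54) and -0.13 (-0.38 to 0.11), and both intervals included 0. Over all these cells a 2-fold reduction lay outside both intervals, which cover counting error only and not the difference between mice. Slc39a1 was higher in the Angptl4-/- library at 1 dpw, 91.1 against 76.2 CPM (log2 ratio 0.26, 0.11 to 0.40), and lower at 5 dpw, 79.7 against 101.2 CPM (-0.34, -0.48 to -0.21). Slc39a14 was higher in the Angptl4-/- library at both times, with 74.4 against 57.6 CPM at 1 dpw (0.37, 0.20 to 0.53) and 61.8 against 52.6 CPM at 5 dpw (0.23, 0.07 to 0.39).

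Over monocyte-like and macrophage-like cells together, 1 of the 5 members (Mt2) passed 2-fold at 1 dpw and 2 (Mt1 and Mt2) at 5 dpw. Each of these was lower in the Angptl4-/- library, and Mt2 at 1 dpw did not pass in macrophage-like cells alone. Among all genes tested the share past 2-fold was 0.652% at 1 dpw and 1.06% at 5 dpw, and the share at least 2-fold lower was 0.355% and 0.575%. Since the set was chosen on this contrast, the count is given beside that background without being read against it. The median log2 ratio over all genes was 0.02 at 1 dpw and -0.01 at 5 dpw. Marker genes of other cell types were rare in these cells, with summed levels of 3.95 to 6.52 CPM for keratinocytes, 0.179 to 8.06 CPM for fibroblasts, 1.58 to 5.49 CPM for erythrocytes and 1.16 to 1.62 CPM for muscle. Endothelial markers summed to 22.8 to 52.7 CPM with Cldn5 at 0, and platelet markers to 245.8, 123.9, 9.86 and 50.3 CPM in the order Angptl4+/+ and Angptl4-/- at 1 dpw, then at 5 dpw, with Gp9 at 0. Their part in the results was not tested.

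**Figure D2:**
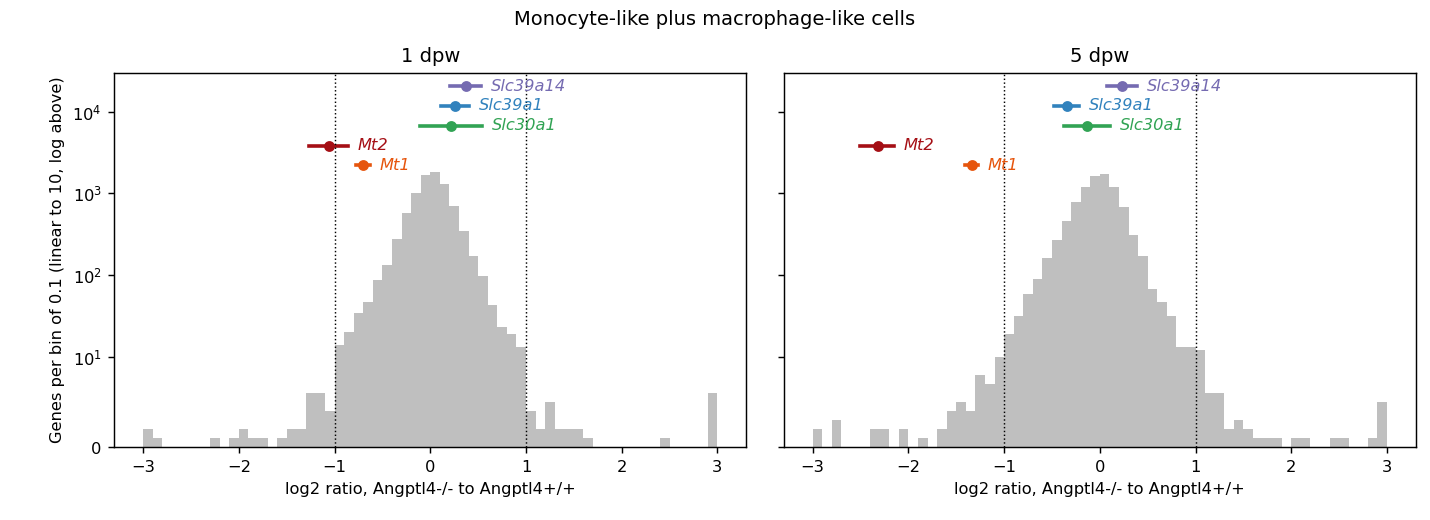
Distribution of the log2 ratio of Angptl4-/- to Angptl4+/+ over all genes with at least 100 UMIs in monocyte-like and macrophage-like cells, at 1 and 5 dpw, with the 5 members marked. Mt2 lies at -1.06 and -2.32 and Mt1 at -0.71 and -1.34, left of most genes, while the 3 transporters lie between -0.34 and 0.37.

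Over time the 2 genotypes gave different pictures for the metallothioneins. In Angptl4+/+ cells Mt2 was higher at 5 than at 1 dpw by a log2 ratio of 1.12 (1.01 to 1.24) and Mt1 by 0.43 (0.38 to 0.48). In Angptl4-/- cells the corresponding ratios were -0.14 (-0.38 to 0.11) for Mt2 and -0.21 (-0.29 to -0.12) for Mt1. Each genotype and time is 1 library, so the difference between these ratios was not tested, and the ratios over time and between genotypes share libraries. The pooled direction did not hold in every cell state. Of the 8 sub-clusters described below, Mt1 in Angptl4+/+ wounds was lower at 5 dpw in 5 and higher in 3, all with intervals that left out 0. Mt2 there was higher in 4 and lower in 1 of the 5 with at least 20 UMIs. In Angptl4-/- wounds Mt1 was lower in 6 and higher in 2, and 3 and 1 of these intervals left out 0.

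Slc30a1 was higher at 5 dpw in both genotypes, by 0.74 (0.49 to 1.01) in Angptl4+/+ and 0.39 (0.08 to 0.71) in Angptl4-/- cells. Slc39a1 was 0.41 higher at 5 dpw in Angptl4+/+ and 0.19 lower on the log2 scale in Angptl4-/- cells. Slc39a14 was close to level or lower at 5 dpw, at -0.13 (-0.29 to 0.02) and -0.27 (-0.44 to -0.10). Mt2 was the 1 member past 2-fold over time in Angptl4+/+ cells, where 7.33% of all genes were, and 0 of the 5 passed in Angptl4-/- cells, where 4.87% did. In macrophage-like cells alone the Mt2 ratio in Angptl4+/+ wounds was 0.96 (0.84 to 1.08), short of 2-fold.

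The monocyte-like and macrophage-like cells were split further into 8 sub-clusters, and the 5 genes marked different ones. Sub-cluster 0, 1041 of the 4713 cells, was led by Arg1, Cxcl3, Ero1l and Egln3 and also by Ndrg1 and Bnip3. Arg1 encodes arginase, a gene of repair-associated macrophages, and Ero1l, Egln3, Ndrg1 and Bnip3 are known to be raised by low oxygen. Mt1 was highest in sub-cluster 0 in all 4 libraries, at 981.8 and 767.4 CPM in Angptl4+/+ and Angptl4-/- wounds at 1 dpw and 1913 and 529.3 CPM at 5 dpw. In Angptl4+/+ wounds at 1 dpw sub-cluster 6 was at 948.7 CPM on 355 UMIs, so it could not be put in order with sub-cluster 0. Mt2 in sub-cluster 0 was at 174.3, 141.0, 639.8 and 153.6 CPM in the same order as Mt1, the highest sub-cluster of both libraries at 5 dpw. The Angptl4+/+ library at 5 dpw stood above the other 3 for both genes.

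Sub-cluster 6, led by Retnla, Lpl and the antigen-presentation genes H2-Aa, H2-Eb1 and Cd74, also held metallothionein, at levels that differed widely between libraries. Its Mt2 was 539.8 CPM in Angptl4+/+ wounds at 1 dpw, the highest sub-cluster of that library, and 140.4 CPM on 32 UMIs in Angptl4-/- wounds, where it could not be put in order with sub-cluster 0, against 110.7 and 23.7 CPM at 5 dpw. These values rest on 42, 32, 120 and 67 cells in that order. Sub-clusters 1 and 4 held Mt2 as well, at 54.0 to 102.5 CPM and 33.7 to 62.2 CPM over the 4 libraries. At the other end, the Plac8-, Cd52- and Gpr183-rich sub-cluster 2 had 137.7 to 198.4 CPM of Mt1 but only 0.574 to 3.04 CPM of Mt2.

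The exporter followed another map. Slc30a1 was highest in sub-cluster 7 in all 4 libraries, at 57.4 to 66.3 CPM, and no other sub-cluster passed 37.2 CPM. Sub-cluster 7 was led by Cxcl10, Ifit2, Ifit3 and Mx1, genes that interferon is known to induce, and its Mt2 was low, at 1.74 to 9.15 CPM. Slc39a1 was highest in sub-cluster 1 (led by Tppp3, Ccl6 and Fn1) in 3 libraries and in sub-cluster 6 in 1, and its lowest levels, 30.1 to 41.8 CPM, were in the monocyte-like sub-cluster 5. Slc39a14 was highest in sub-cluster 0 in 2 libraries and sub-cluster 2 in 2, and was 0 to 10.3 CPM in sub-cluster 5. Its order at the top was not resolved in Angptl4-/- wounds at 1 dpw, with 131.7 CPM in sub-cluster 2 and 127.3 CPM in sub-cluster 6. A sub-cluster's own leading genes helped to form it, so its levels are given without a test.

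**Figure D3:**
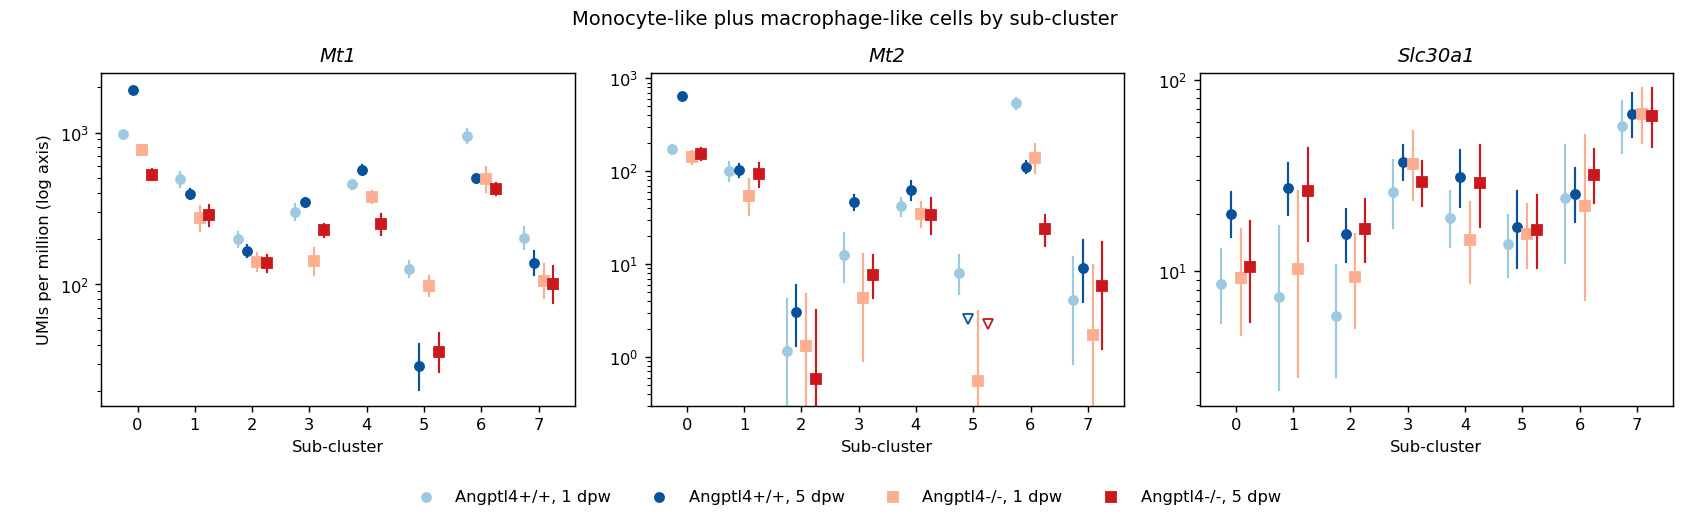
Level of Mt1, Mt2 and Slc30a1 (CPM, log axis) in the 8 sub-clusters of monocyte-like and macrophage-like cells, 1 point per library. Mt1 peaks in sub-cluster 0, at 529.3 to 1913 CPM, and Slc30a1 in sub-cluster 7, at 57.4 to 66.3 CPM.

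The lower metallothionein levels in Angptl4-/- cells were met in most sub-clusters, counting those with at least 20 UMIs over the 2 libraries. Mt1 was lower in 8 of 8 sub-clusters at 1 dpw, with log2 ratios of -1.08 to -0.27 and 8 intervals that left out 0, and in 7 of 8 at 5 dpw, of which 6 intervals left out 0. The exception at 5 dpw was the monocyte-like sub-cluster 5, at 0.32 with an interval that included 0. Mt2 was lower in 4 of 4 at 1 dpw, from -1.94 to -0.26, and in 5 of 5 at 5 dpw, from -2.60 to -0.15. At 5 dpw sub-cluster 3 reached 20 Mt2 UMIs only through the Angptl4+/+ library, with 118 against 15. These sub-clusters come from the same 4 libraries and are not replicates.

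The size of the difference was uneven over sub-clusters and shifted with time. In sub-cluster 0 the log2 ratios at 1 dpw were -0.36 (-0.47 to -0.25) for Mt1 and -0.31 (-0.57 to -0.05) for Mt2. At 5 dpw they were -1.85 (-1.98 to -1.73) and -2.06 (-2.29 to -1.83) in the same sub-cluster. Within it, Angptl4+/+ cells had 0.96 more Mt1 and 1.88 more Mt2 at 5 than at 1 dpw on the log2 scale, and Angptl4-/- cells had -0.54 and 0.12. In sub-cluster 6 Mt2 was lower in Angptl4-/- wounds at both times, by log2 ratios of -1.94 and -2.22. In sub-cluster 3, led by C1qa, C1qb, C1qc and Selenop, the Mt2 ratio at 5 dpw was -2.60 (-3.49 to -1.82). It rested on 15 UMIs in Angptl4-/- and 118 in Angptl4+/+ cells.

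Sub-cluster 0 also differed in size. Its share of the cells split was 26.1% (Angptl4+/+) against 20.7% (Angptl4-/-) at 1 dpw, and 22.7% and 15.8% at 5 dpw. It held 53.6%, 61.9%, 76.7% and 59.7% of the Mt2 UMIs in that order, while holding 22.8%, 15.6%, 19.4% and 12.6% of all UMIs. Given the same sub-cluster shares in every library, the ratios at 5 dpw became -1.20 for Mt1 and -1.81 for Mt2. With the cells of sub-cluster 0 left out they became -0.59 and -1.65, so that Mt1 no longer passed 2-fold at 5 dpw. The Mt2 ratio over time in Angptl4+/+ cells, 1.12 with all cells, was 0.70 with equal sub-cluster shares and 0.07 without sub-cluster 0.

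Slc39a1 was higher in Angptl4-/- cells in 8 of 8 sub-clusters at 1 dpw and lower in 8 of 8 at 5 dpw, although 3 and 1 of these intervals left out 0. Slc30a1 was higher at 5 than at 1 dpw in 8 of 8 sub-clusters of the Angptl4+/+ libraries, 3 of them with intervals above 0, and in 5 of the 7 that had enough UMIs in the Angptl4-/- libraries, 0 of them with an interval above 0. In sub-cluster 0 at 5 dpw Slc30a1 was lower in Angptl4-/- cells, 10.5 against 19.98 CPM on 12 and 55 UMIs, and its interval (-1.96 to -0.0055 around -0.92) held a 2-fold reduction. No other genotype interval of Slc30a1 in the sub-clusters with enough UMIs left out 0. For Slc39a14 the genotype ratio took both signs at each time, with 6 of 8 sub-clusters higher in Angptl4-/- wounds at 1 dpw and 4 of 7 at 5 dpw.

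**Figure D4:**
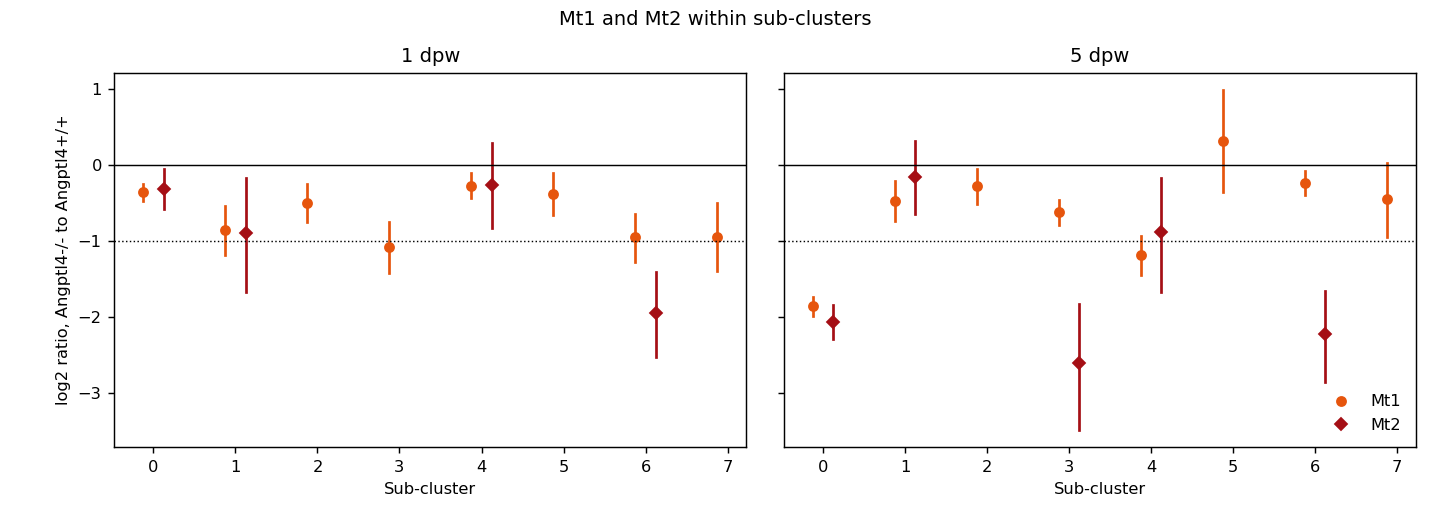
Log2 ratio of Angptl4-/- to Angptl4+/+ for Mt1 and Mt2 at 1 and 5 dpw, with 95% counting intervals. Sub-clusters with at least 20 UMIs of the gene over both libraries are shown. Points for Mt1 lie below 0 in 8 of 8 sub-clusters at 1 dpw and 7 of 8 at 5 dpw, and those of Mt2 with at least 20 UMIs lie below 0 throughout.

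Cell by cell, metallothionein transcripts were unevenly shared. At 1 dpw Mt2 was seen in 184 of 1303 Angptl4+/+ cells against 77 of 970 Angptl4-/- cells, and at 5 dpw in 401 of 1668 against 65 of 772. The 10 cells with the most Mt2 held 32.0%, 49.6%, 16.0% and 53.9% of its UMIs in that order. Mt1 was broader, with UMIs in 810, 464, 1104 and 410 cells, and its 10 highest cells held 12.3%, 21.8%, 10.5% and 15.7% of its UMIs. Without the 10 highest cells of each library the genotype ratios of Mt2 moved to -1.495 at 1 dpw and -3.18 at 5 dpw and those of Mt1 to -0.87 and -1.41. The same number of cells was taken from libraries of unequal size, so the direction of these moves follows from the shares just given.

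Thinned to 1000 UMIs per cell, at 1 dpw an Mt1 UMI was seen in 29.8% of Angptl4+/+ against 19.5% of Angptl4-/- cells, and 31.02% and 15.7% at 5 dpw. For Mt2 the shares were 6.13% and 3.75% at 1 dpw and 11.6% and 3.40% at 5 dpw. The share of cells with 5 or more Mt1 UMIs was 2.34% and 1.54% at 1 dpw and 4.48% and 0.784% at 5 dpw. The shares with a transcript of either gene and with 5 or more Mt1 UMIs were thus lower in the Angptl4-/- library each time. Further up, this order was not kept at 1 dpw. At 8 or more Mt1 UMIs the share was 0.403% in Angptl4+/+ and 0.662% in Angptl4-/- cells. Mt2 at 5 or more UMIs gave 0.323% and 0.331%, on 4 and 3 cells. Cells under 1000 UMIs were left out, which kept 1240 and 907 cells at 1 dpw and 1628 and 765 at 5 dpw.

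**Figure D5:**
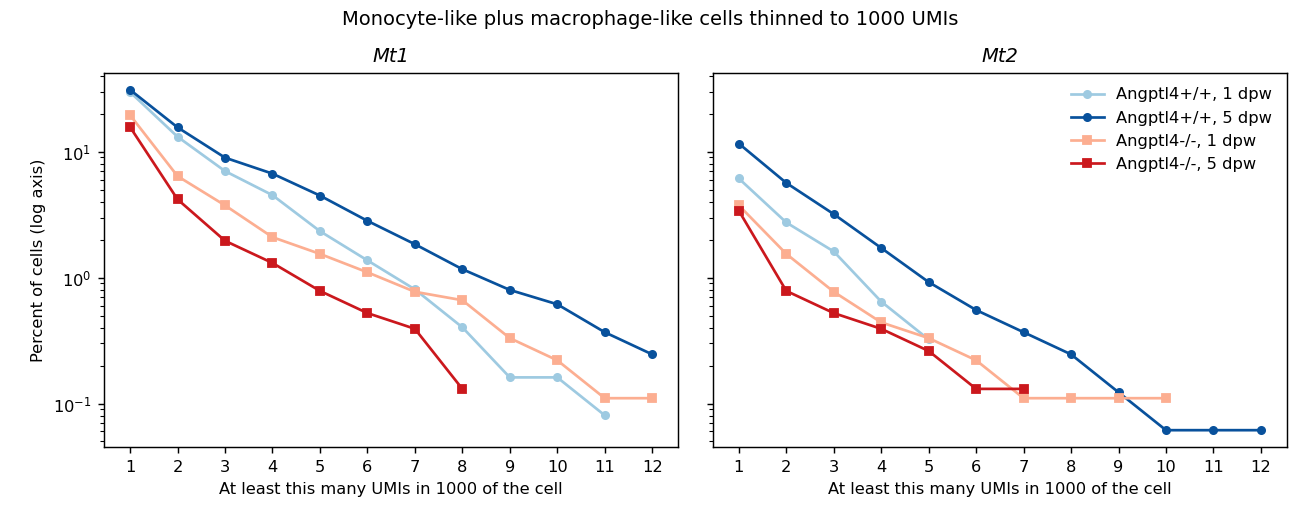
Share of monocyte-like and macrophage-like cells (percent, log axis) with at least a given number of Mt1 or Mt2 UMIs, after thinning to 1000 UMIs per cell. At 5 or more Mt1 UMIs the Angptl4+/+ library at 5 dpw is highest, at 4.48%, and the Angptl4-/- library at 5 dpw lowest, at 0.784%.

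Cells with Mt2 usually had Mt1 too. After thinning, Mt1 was seen in 86.8% and 70.6% of Mt2-positive Angptl4+/+ and Angptl4-/- cells at 1 dpw, against 26.0% and 17.5% of cells without Mt2, and in 84.7% and 65.4% at 5 dpw, against 24.0% and 13.9%. Of the UMIs of both genes, Mt2 gave 13.9% (exact 95% interval 13.04 to 14.8) and 11.2% (9.97 to 12.5) at 1 dpw, and 20.8% (20.01 to 21.5) and 11.7% (10.5 to 13.01) at 5 dpw. Over all these cells Mt2 thus made up more of the pair in Angptl4+/+ wounds at 5 dpw than in the other 3 libraries. Within sub-cluster 0 at 5 dpw the intervals overlapped, with 25.1% (24.05 to 26.1) in Angptl4+/+ and 22.5% (19.6 to 25.6) in Angptl4-/- cells. In the same order the shares at 5 dpw were 20.7% and 24.5% in sub-cluster 1, 11.8% and 3.27% in sub-cluster 3, and 18.1% and 5.27% in sub-cluster 6. The same share was 0.415% to 1.79% in sub-cluster 2, 15.1% to 25.1% in sub-cluster 0, 16.5% to 24.5% in sub-cluster 1 and 5.27% to 36.3% in sub-cluster 6, and in the monocyte-like sub-cluster 5 it was 0% in both libraries at 5 dpw.

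Over the 32 combinations of sub-cluster and library, the log levels of Mt1 and Mt2 had r = 0.91, and each was the nearest of 6952 genes to the other. Among the genes next nearest to Mt1 were Vdac1 (r = 0.90), a channel of the outer mitochondrial membrane, and the collagen prolyl hydroxylase subunit P4ha2. Slc39a1 was moderately like both (r = 0.72 with Mt1 and 0.71 with Mt2), whereas Slc30a1 was not (r = -0.18 and -0.10). The nearest genes to Slc30a1 were Lacc1 (0.83), Plekhf2 and Cnp, those to Slc39a1 were Cerk (0.92), Tuba1b and Serinc1, and those to Slc39a14 were Got1 (0.90), Timp1 and Lmna. Over the 46 combinations of cluster and library, which set all cell classes side by side, the nearest genes were others: Arhgdia (0.94), Ywhae and Aplp2 to Mt1, Slc41a2 (0.87), Mgarp and Dst to Mt2, Paox (0.92), Mavs and Gm13212 to Slc30a1, Mfsd12 (0.94), Vat1 and Slc35e4 to Slc39a1, and Cenpb (0.89), Gpalpp1 and Nsd2 to Slc39a14. There Mt1 and Mt2 had r = 0.82, and Mt1 was nearer to Slc39a1 (0.88) and Slc39a14 (0.88). Of 8723 genes, Mt2 was only number 1489 in nearness to Mt1, Slc39a1 number 189 and Slc39a14 number 250, while Mt1 was number 13 in nearness to Mt2. Slc30a1 had r = 0.76 with Mt1 and 0.53 with Mt2 there, but was only number 2958 in nearness to Mt1 and number 2745 in nearness to Mt2. The points share libraries and differ in depth, so these values are descriptions without a test.

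In dendritic cell-like cells, 112, 89, 319 and 212 cells in the Angptl4+/+ and Angptl4-/- libraries at 1 dpw and then 5 dpw, Mt1 was lower in the Angptl4-/- library by log2 ratios of -0.64 (-0.91 to -0.37) and -0.30 (-0.45 to -0.16). Mt2, on 76 and 40 UMIs at 1 dpw and 126 and 45 at 5 dpw, gave -0.50 (-1.09 to 0.08) and -1.04 (-1.56 to -0.54). The latter fell short of 2-fold with thinned cells (-0.26) and with equal weight per cell (-0.90). The Mt1 log2 ratio at 5 dpw was -0.11 among NK cell/T cell-like cells, with an interval (-0.39 to 0.17) that included 0. The Mt2 ratio there, -2.75, rested on 60 Angptl4+/+ UMIs of which 49 came from 1 cell, and turned to 1.44 when cells were clustered without integration of the libraries.

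Neutrophil-like cells, 3890 and 3701 at 1 dpw and 2711 and 3509 at 5 dpw in Angptl4+/+ and Angptl4-/- wounds, had little of the 5 genes. Expressed as a percentage of the macrophage-like level of the same library, 7 macrophage genes had medians of 0.110% to 0.514% in neutrophil-like cells and at most 0.534% to 2.08%, the highest being Apoe, which gives the size of free RNA carried between droplets. Mt1 was at 1.495% to 6.24%, Slc39a1 at 12.6% to 25.4%, Slc39a14 at 1.62% to 15.5% and Slc30a1 at 4.05% to 7.59%, each above Apoe in all 4 libraries, although for Mt1 in Angptl4+/+ wounds at 5 dpw the gap (2.37% on 138 UMIs against 2.08%) was within counting error. Mt2, at 1.63% to 2.79% on 13 to 36 UMIs per library, was above Apoe in 3 of the 4 and below it in Angptl4+/+ wounds at 5 dpw, and too few UMIs were counted to read a difference from it.

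Mt1 in neutrophil-like cells was 8.73 and 5.07 CPM in Angptl4+/+ and Angptl4-/- wounds at 1 dpw and 15.9 and 17.5 CPM at 5 dpw. Slc39a14 was 2.08 and 1.53 CPM at 1 dpw and 8.87 and 5.37 CPM at 5 dpw, and Slc39a1 was 12.6 and 13.4, then 22.2 and 22.4 CPM. All 3 genes were thus higher at 5 dpw in both genotypes. For the genotypes, 2 members had enough UMIs at 1 dpw and 3 at 5 dpw, and 0 passed 2-fold, against 0.958% and 1.13% of all genes. Over time 1 of 3 members with enough UMIs passed in Angptl4+/+ cells, Slc39a14 at a log2 ratio of 2.09 (1.53 to 2.67), where 32.7% of all genes passed and 30.9% were higher. In Angptl4-/- cells 1 of 2 passed, Mt1 at 1.79 (1.43 to 2.15), where 34.8% passed and 33.0% were higher. Erythrocyte markers summed to 1309 CPM in the neutrophil-like cells of that Angptl4-/- library at 5 dpw, against 0.254 to 3.68 CPM in the other 3, and their part in the result was not tested. The median of all genes was itself 0.66 and 0.69 higher at 5 dpw in these cells. Most of the Slc39a1 difference (0.81 and 0.74) was thus shared with the typical gene. So was most of the Mt1 difference in Angptl4+/+ cells (0.86).

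Of 26 other genes of zinc handling, 14 had enough UMIs in monocyte-like and macrophage-like cells in each comparison. Between genotypes 0 of 14 passed 2-fold at either time, beside 0.652% of all genes at 1 dpw and 1.06% at 5 dpw. Their medians were 0.14 at 1 dpw and -0.03 at 5 dpw, beside 0.02 and -0.01 over all genes. Mtf1, the zinc sensor itself, was at 23.5 and 24.9 CPM in Angptl4+/+ and Angptl4-/- cells at 1 dpw and 24.4 and 21.7 CPM at 5 dpw. Slc39a10, a plasma membrane importer, was the highest of the list in Angptl4-/- cells at both times, with log2 ratios of 0.47 and 0.45. The other exporters, most of which load zinc into organelles, took both signs in Angptl4-/- against Angptl4+/+ cells at 1 and then 5 dpw, with log2 ratios of 0.45 and -0.23 for Slc30a4, 0.31 and -0.16 for Slc30a5, 0.12 and 0.19 for Slc30a6, 0.19 and 0.06 for Slc30a7, and -0.17 and -0.25 for Slc30a9. The other importers stood at 0.22 and -0.12 for Slc39a3, 0.16 and 0.15 for Slc39a6, -0.11 and -0.03 for Slc39a7, 0.20 and -0.03 for Slc39a9, -0.20 and -0.29 for Slc39a11, and 0.37 and 0.10 for Slc39a13. Slc30a4 had fewer than 100 UMIs in each of these comparisons and is outside the 14. Over time 2 of 14 passed in each genotype, beside 7.33% of all genes in Angptl4+/+ and 4.87% in Angptl4-/- cells. They were S100a8 and S100a9, which encode the subunits of the zinc-binding protein calprotectin and were lower at 5 dpw (-2.29 and -2.02 in Angptl4+/+, -1.90 and -1.79 in Angptl4-/-). They are abundant transcripts of neutrophils, and their part carried over as free RNA was not tested.

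Genes known to answer other inducers of metallothionein were read in the same cells. Of 9 genes raised by low oxygen with enough UMIs, 9 were lower in Angptl4-/- cells at 1 dpw and 8 at 5 dpw. Their medians were -0.27 and -0.56, beside 0.02 and -0.01 over all genes. Past 2-fold there were 0 of the 9, beside 0.652% and 1.06% of all genes. Egln3 was at -0.53 and -0.65 and Bnip3 at -0.35 and -0.56, both of them leading genes of sub-cluster 0. Of 8 oxidative stress genes 7 were lower at 1 dpw and 6 at 5 dpw, with medians of -0.28 and -0.03, and heme oxygenase Hmox1 was at -0.79 and -0.12. Glucocorticoid-responsive genes had medians of -0.03 and -0.15, and those of the interleukin-6 and acute phase list 0.01 and -0.22, with Saa3 at -2.73 at 5 dpw the 1 gene of the 4 lists past 2-fold between genotypes. From 1 to 5 dpw all 9 low oxygen genes were lower in both genotypes, while Mt1 and Mt2 were higher in Angptl4+/+ cells. The medians of the 9 were -0.71 in Angptl4+/+ and -0.92 in Angptl4-/- cells. In that order, oxidative stress genes had 0.09 and 0.41, glucocorticoid-responsive genes -0.52 and -0.34, and acute phase genes -0.37 and -0.49. Over all genes the medians were 0.10 and 0.04. The part of the 4 lists in the metallothionein difference was not tested.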

How the data were processed

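Droplet 3′ single-cell libraries (10x Chromium, V3 chemistry) were made from live CD45+ wound cells, and the authors deposited UMI counts per gene and cell from Cell Ranger 3.1.0 on mm10, with Seurat 3.0 named for later steps. From these counts, cells with at least 200 genes and at most 10% mitochondrial UMIs were kept. Libraries were integrated and clustered in Seurat 5.3.0 (R 4.3.3; 2000 variable genes, 30 dimensions, resolution 0.5), and clusters were named from marker genes. Doublets (27 to 60 per library by scanpy 1.11.5) stayed in. UMIs were summed per class and library and divided by their total. Intervals are exact 95% Poisson or binomial ones, of ratios exact conditional ones, unless named otherwise. Those of ratios were run on simulated Poisson counts, the model they assume. That run checks the calculation only and does not cover UMIs bunched in few cells. Genes with at least 100 UMIs over 2 libraries were compared, and 2-fold was the size set aside. Named genes were the members, listed zinc genes with enough UMIs, and the nearest genes by Pearson correlation of log2(CPM + 1). Python 3.11.15, numpy 2.4.6, scipy 1.17.1 and pandas 2.3.3 were used. Members and lists were chosen with earlier results of these data known.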

Additional observations from a re-analysis of the deposited data

Results flagged for a closer look

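Some ratios pointed in opposite directions in the groups compared. Each group is 1 library, so the difference between the ratios was not tested. In monocyte-like and macrophage-like cells together, the log2 ratio of 5 to 1 dpw was 0.43 in Angptl4+/+ and -0.21 in Angptl4-/- wounds for Mt1, and 0.41 and -0.19 for Slc39a1. Without sub-cluster 0, an alternative chosen after seeing the data, the Mt1 ratios were 0.0018 and 0.08 and no longer opposite. In macrophage-like cells alone it was 0.31 and -0.28 for Mt1, 0.96 and -0.29 for Mt2, and 0.32 and -0.28 for Slc39a1, the last of which was 0.00041 with cells thinned to 1000 UMIs. The ratio of Angptl4-/- to Angptl4+/+ for Slc39a1 was 0.26 at 1 dpw and -0.34 at 5 dpw in both kinds of cell together, and 0.33 and -0.27 in macrophage-like cells. These contrasts share libraries, so the 2 opposite patterns of Slc39a1 are 1 observation seen from both sides.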

How the results depend on the processing

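No paired analysis was possible because each condition was 1 library. In monocyte-like and macrophage-like cells together, both metallothioneins stayed lower in the Angptl4-/- library at both times under every setting run for them. At 1 dpw the Mt2 log2 ratio of -1.06 became -0.61 with cells thinned to 1000 UMIs, -0.72 with equal weight per cell, -1.48 without sub-cluster 0 and -1.50 without the 10 highest cells, and that of Mt1 became -0.55 with equal sub-cluster shares and -0.87 without the 10 highest cells. At 5 dpw Mt2 moved from -2.32 to -2.13, -2.02, -1.81, -1.65 and -3.18 with thinning, equal weight, equal sub-cluster shares, without sub-cluster 0 and without the 10 highest cells, and Mt1 from -1.34 to -1.61, -1.58, -1.20, -0.59 and -1.41. The last 3 settings were chosen after seeing the data. Counting genes with at least 20 UMIs, those past 2-fold were 288 and 389 between genotypes at 1 and 5 dpw and 1303 and 917 over time in Angptl4+/+ and Angptl4-/- monocyte-like and macrophage-like cells, and 348, 406, 3906 and 4098 in neutrophil-like cells. With the median gene set to 0 and at least 100 UMIs, the counts over time in neutrophil-like cells were 1102 and 1147, against 2170 and 2323 without that shift. The other 104 ratios stayed within their interval in 704 of 807 settings and took the other sign in 51, of which 5 were for ratios whose interval left out 0. Among ratios past 2-fold, 2 changed sign: Mt2 over time in Angptl4-/- dendritic cell-like cells (-1.17 to 0.070, thinned) and Mt2 between genotypes at 5 dpw in NK cell/T cell-like cells (-2.75 to 1.44, no integration). The cause was not tested. Replicates are the limit throughout, and genes under 20 UMIs in a class could not be compared.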
